A study of Mus musculus with 6 samples.

Results

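FGF receptors, FGF ligands and the Sprouty genes that dampen FGF signalling were followed from myoblasts to myotubes in C2C12, an established line of mouse myoblasts that form multinucleated myotubes by fusion. The 10 genes were taken by symbol from 54525 gene rows of the count files: the receptors *Fgfr1*, *Fgfr2*, *Fgfr3*, *Fgfr4* and *Fgfrl1*, the ligands *Fgf2* and *Fgf21*, and the inhibitors *Spry1*, *Spry2* and *Spry4*. RNA-seq was available from 3 libraries of wild type (WT) C2C12 cells on day 0 (D0, myoblasts) and 3 libraries of WT C2C12 cells on day 5 of differentiation (D5, myotubes), with treatment given as none in both groups. According to the study's methods, differentiation was started by replacing growth medium with fetal bovine serum by a medium with less serum, from horse, so the effects of the medium and of differentiation cannot be told apart. All libraries came from a single cell line, and nothing in the labels says that the cultures of a group were grown separately, so p-values measure the spread between these libraries, which may be technical.

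FGFs bind receptor tyrosine kinases together with heparan sulfate chains at the cell surface. The activated receptor recruits adaptors such as FRS2, GRB2 and SOS, which switch on Ras and the RAF-MEK-ERK kinase cascade. ERK activity in turn induces inhibitors of the same route, among them the Sprouty and Spred proteins, the phosphatase DUSP6 and the membrane protein SEF (*Il17rd*). In cultured myoblasts FGF2 is known as a mitogen that holds back differentiation, and Sprouty1 is known for its role in the return of muscle satellite cells to quiescence.

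Counts on genes ranged from 36555048 to 40895840 in the D0 libraries and were fewer at D5, 25449759 to 25811300. All 6 myotube markers (*Myog*, *Mymk*, *Myh3*, *Ckm*, *Acta1* and *Tnnt3*) were higher at D5 and all 4 markers of cycling myoblasts (*Myf5*, *Pax7*, *Mki67* and *Ccnb1*) were lower, past the threshold described below. The D5 libraries still held 53.4 to 57.1 CPM (counts per 1000000 counts, after TMM scaling of the libraries) of the summed myoblast markers, against 971 to 986 CPM at D0. Of 5 fibroblast markers, 4 were higher at D5 (*Pdgfra*, *Dpt*, *Pi16* and *Lum*) with a summed level of 53.0 to 64.3 CPM against 1.15 to 1.5 CPM at D0, and *Tcf21* had 0 counts in every library. Of the other lists, *Cebpa* was higher among 5 adipocyte markers (*Adipoq*, *Plin1*, *Cidec* and *Lep* had at most 3 counts per library), *Runx2* was lower and *Dmp1* higher among 5 osteoblast markers, and *Kdr* and *Tek* were lower among 5 endothelial markers. *Dpt*, *Pi16*, *Lum*, *Dmp1*, *Kdr* and *Tek* passed the filter on low counts only through the group where they were high. In bulk RNA, fewer cells of a type and less RNA per cell cannot be told apart. The part of any other cell type in the results was not tested.

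In CPM and in TPM, the D5 values of all 10 genes exceeded the highest D0 value. All 10 were also higher at D5 past an adjusted p of 0.05 in edgeR's quasi-likelihood test with TMM scaling, in which 42.2% of all 16290 genes tested were called higher and 40.8% lower. Of the 10, *Fgfr4* passed the filter on low counts only through its D5 libraries, so its direction was fixed by the filter, and the other 9 passed in both groups. Of all genes tested, 42.2% lay in every D5 library above every D0 library and 41.1% below. With scaling to ERCC spike-ins (synthetic RNAs added to the samples) 7 of the 10 were called higher, beside 11.1% of all genes, and in counts that were not scaled 8 were, beside 20.6% of all genes. The median log2 fold change of the 10 genes was 2.66, and that of all genes was 0.00. The largest differences were those of *Fgf21*, *Fgfr4*, *Spry1* and *Fgf2*, and the smallest was that of *Fgfr1*, whose sign was negative in counts that were not scaled and with the spike-ins. Those settings moved the median of all genes to -0.68 and -0.58.

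**Figure D1:**
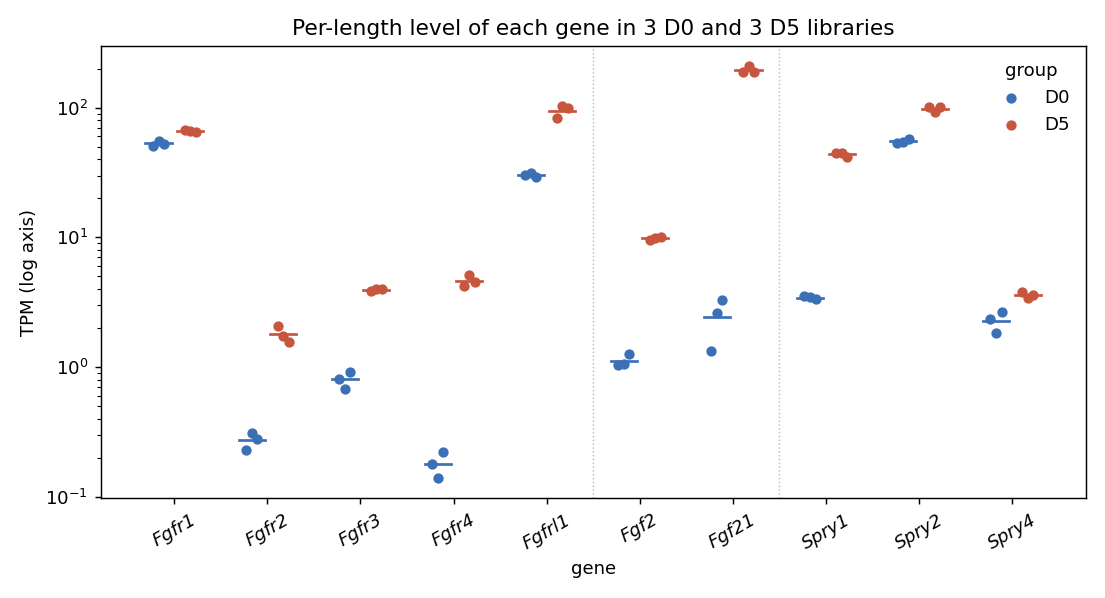
Level of each gene in TPM (transcripts per 1000000 transcripts, a level per exonic length) on a log axis, for 3 D0 libraries (blue) and 3 D5 libraries (red), with a line at the group mean. On this scale every gene sits higher at D5, from *Fgfr1*, at 50.9 to 55.8 against 64.6 to 67.2, to *Fgf21*, at 1.34 to 3.30 against 189 to 208.

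Promoters were described for these genes, which with TMM scaling were all called higher at D5, as were 42.2% of all genes tested. For 8 of the 10 genes a promoter of 300 bases (250 before the start site and 50 after it) was matched in RefSeq on GRCm38.p6. *Fgfr3* had 2 such promoters, which gave 9 in all. None was matched for *Fgfr1* in the reference set used here, and *Spry4* was left out of the search. The promoters of the 3 genes with the largest fold changes in their classes (ligand, receptor and Sprouty gene) are shown 5′ to 3′, with matches to the motifs searched in capitals: *Fgf21* at chr7:45615441-45615740 on the minus strand, *Fgfr4* at chr13:55152568-55152867 on the plus strand and *Spry1* at chr3:37639697-37639996 on the plus strand.
Fgf21: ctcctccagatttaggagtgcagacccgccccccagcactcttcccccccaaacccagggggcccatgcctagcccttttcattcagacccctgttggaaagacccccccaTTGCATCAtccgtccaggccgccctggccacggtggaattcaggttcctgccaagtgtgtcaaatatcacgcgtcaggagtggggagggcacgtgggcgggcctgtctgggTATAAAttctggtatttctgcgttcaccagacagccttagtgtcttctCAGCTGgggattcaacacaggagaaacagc
Fgfr4: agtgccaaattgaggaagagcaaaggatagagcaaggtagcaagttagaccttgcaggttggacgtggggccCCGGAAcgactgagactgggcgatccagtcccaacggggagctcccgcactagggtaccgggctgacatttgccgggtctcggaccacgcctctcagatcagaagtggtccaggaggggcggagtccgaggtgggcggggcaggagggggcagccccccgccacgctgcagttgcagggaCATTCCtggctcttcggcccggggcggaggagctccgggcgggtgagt
Spry1: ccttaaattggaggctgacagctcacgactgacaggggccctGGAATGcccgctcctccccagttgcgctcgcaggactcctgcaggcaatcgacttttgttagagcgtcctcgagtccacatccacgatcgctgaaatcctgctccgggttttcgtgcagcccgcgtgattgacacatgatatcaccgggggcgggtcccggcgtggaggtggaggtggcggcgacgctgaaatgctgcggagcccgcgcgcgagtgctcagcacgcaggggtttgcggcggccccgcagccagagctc

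Motifs were searched on both strands, and none of the matches in the promoters shown overlapped another. The *Fgf21* promoter holds TTGCATCA, a match on the opposite strand to TGATGNAA (the letters of a composite element bound by ATF4 and C/EBP factors), starting 139 bases before the start site. It also holds TATAAA starting at -28 and the E-box CAGCTG (its own reverse complement, the letters preferred by myogenic bHLH factors) starting at 21. TGATGNAA occurs in 3.97% of all 32851 promoters of this length, TATAAA in 13.6% and CAGCTG in 16.3%. Of the 9 promoters of these genes, the one of *Fgf21* was alone in holding TGATGNAA or TATAAA, and CAGCTG occurred in 2, that of *Fgf21* and 1 of *Fgfr3*. The *Fgfr4* promoter holds the MCAT letters CATTCC, known as a TEAD binding motif, and the ETS core CCGGAA. The *Spry1* promoter holds the MCAT letters on the opposite strand, as GGAATG. MCAT letters occur in 14.7% of all promoters and the ETS core in 14.9%, and the ETS core was also found in those of *Fgfrl1* and *Spry2*. The ratio of observed to expected CpG was above the median of all promoters, 0.38, in 7 of the 9 promoters. It was 0.96 in *Fgfrl1*, 0.95 in *Spry2*, 0.93 in *Spry1*, 0.84 in *Fgf2*, 0.73 and 0.78 in *Fgfr3* and 0.65 in *Fgfr4*, against 0.36 in *Fgf21* and 0.28 in *Fgfr2*. These matches describe the letters of the windows and no binding was measured.

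*Fgfr1* (ENSMUSG00000031565.18, chromosome 8 of GRCm38 from 25513654 to 25575718) had the highest level per length of the 4 kinase receptors in both groups. Its values were 148, 159 and 149 CPM in the D0 libraries and 209, 213 and 207 CPM in the D5 libraries. The groups did not overlap, and the means of 152 ± 5.98 CPM and 210 ± 3.13 CPM (n = 3, SD) differed 1.38-fold. The log2 fold change was 0.47 (standard error, SE, 0.034, edgeR adjusted p = 1.5e-13), but it was -0.22 in counts that were not scaled and -0.09 with scaling to the spike-ins.

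The other signalling receptors started from much lower levels. *Fgfr4* (ENSMUSG00000005320.9, chromosome 13 from 55152640 to 55168759), a receptor known from differentiating and regenerating muscle, was counted 7, 6 and 9 times at D0 and 119, 147 and 130 times at D5. This corresponds to 0.187, 0.143 and 0.223 CPM at D0 and 4.74, 5.97 and 5.23 CPM at D5, a 28.8-fold difference of the means. Every D5 library lay far above every D0 library, although the D0 level rests on fewer than 10 counts per library. The log2 fold change was 4.82 (SE 0.22, edgeR adjusted p = 9.1e-19), with the limit that the gene entered the test only through its D5 libraries.

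*Fgfr2* (ENSMUSG00000030849.18, chromosome 7 from 130162451 to 133123350) had 0.694, 0.928 and 0.819 CPM at D0 and 6.77, 5.92 and 5.19 CPM at D5. The D5 mean was 7.32-fold higher, with a log2 fold change of 2.86 (SE 0.16, edgeR adjusted p = 2.3e-16). Of its exonic length, 3.04% is shared on the same strand with *Ctbp2*, which was lower at D5 (45.7 CPM at D0 and 19.0 CPM at D5). *Fgfr3* (ENSMUSG00000054252.18, chromosome 5 from 33721674 to 33737068) had 1.71, 1.40 and 1.86 CPM at D0 and 8.64, 9.45 and 9.29 CPM at D5. It was 5.50-fold higher at D5, with a log2 fold change of 2.46 (SE 0.12, edgeR adjusted p = 6.5e-18). For both genes the groups were well apart, and no 50-base sequence of the transcripts of any of the 5 receptors occurred in those of another, so reads of that length could be told apart within the family. Of the exonic length of *Fgfr3*, 13.9% is shared with *G630022F23Rik* on the opposite strand, which had at most 5 counts in any library. How reads in that stretch were assigned was not tested.

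*Fgfrl1* (ENSMUSG00000008090.14, chromosome 5 from 108692382 to 108706924) encodes a receptor that binds FGFs but lacks the tyrosine kinase domain. It was at 24.7, 25.3 and 23.0 CPM in the D0 libraries and 73.3, 93.6 and 89.0 CPM at D5. D5 replicate 1 was the lowest of its group, yet lay far above the D0 libraries. The means of 24.3 ± 1.18 CPM and 85.3 ± 10.7 CPM (n = 3, SD) differed 3.50-fold, a log2 fold change of 1.81 (SE 0.061, edgeR adjusted p = 4.6e-22). With scaling to the spike-ins the adjusted p in edgeR's test was 0.0472, just past the threshold.

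The make-up of the receptor pool was then compared within each library, a measure that does not depend on how libraries are scaled. Of the summed TPM of *Fgfr1* to *Fgfr4*, *Fgfr1* took 97.7%, 98.0% and 97.4% in the D0 libraries and 86.9%, 85.8% and 86.5% in the D5 libraries. *Fgfr1* thus made up most of the pool in every library, with a share 11.3 percentage points smaller at D5. The share of *Fgfr4* was 0.332% ± 0.0815 at D0 and 6.09% ± 0.605 at D5 (n = 3, SD). The share of *Fgfr3* was 1.48% ± 0.252 and 5.18% ± 0.210, and that of *Fgfr2* was 0.499% ± 0.0559 and 2.35% ± 0.313 (n = 3, SD). At D0 the order below *Fgfr1* was *Fgfr3*, *Fgfr2*, *Fgfr4*, and at D5 it was *Fgfr4*, *Fgfr3*, *Fgfr2*, with no overlap between neighbours in either group. The order at D5 and the size of these differences rest on the division by exonic length. In CPM, without that division, the order at D0 was the same. At D5 *Fgfr3* then came first below *Fgfr1*, with 8.64 to 9.45 CPM. *Fgfr2* with 5.19 to 6.77 CPM and *Fgfr4* with 4.74 to 5.97 CPM overlapped. In shares of counts the difference was -7.13 percentage points for *Fgfr1* and 2.18 for *Fgfr4*, against -11.3 and 5.76 in shares of TPM. For each of the 4 shares the groups did not overlap, and the exact two-sided permutation test gave p = 0.1, the smallest value that 3 libraries against 3 can give. The summed level of the 4 receptors was 54.5 ± 2.37 TPM at D0 and 76.3 ± 1.40 TPM at D5 (n = 3, SD).

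**Figure D2:**
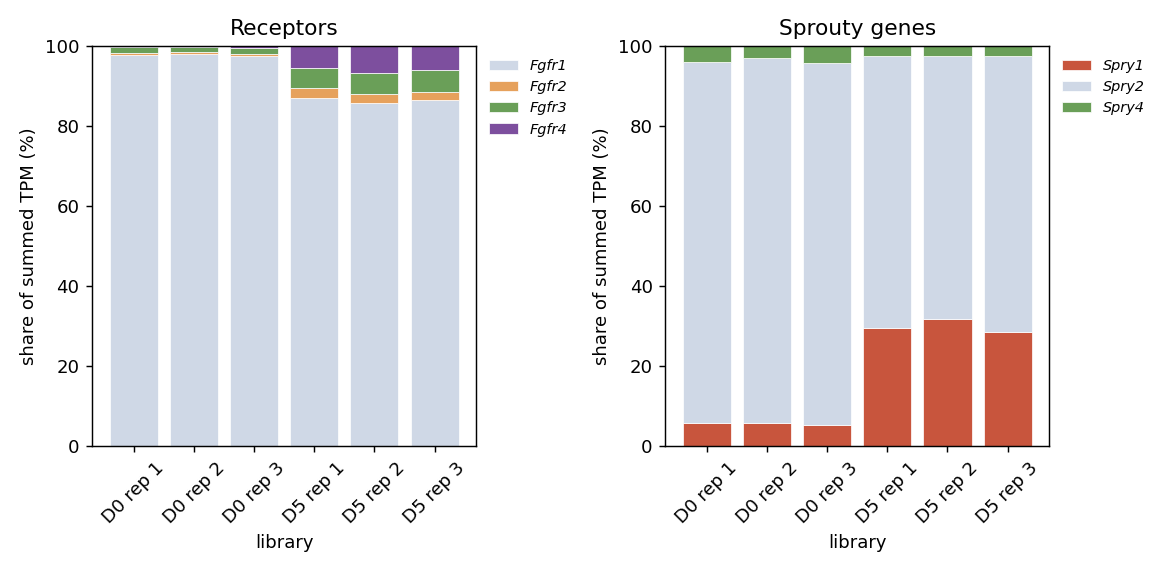
Share of each gene (in percent) in the summed TPM of *Fgfr1* to *Fgfr4* (left) and of *Spry1*, *Spry2* and *Spry4* (right), with 1 stacked bar per library. *Fgfr1* takes at least 97.4% in the D0 libraries and at most 86.9% in the D5 libraries, and *Spry1* takes at most 5.86% at D0 and at least 28.6% at D5.

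Among the ligands, *Fgf21* (ENSMUSG00000030827.5, chromosome 7 from 45613886 to 45615490), an endocrine FGF that muscle is known to release under stress, showed the largest difference of the 10 genes. At D0 it was counted 14, 30 and 36 times, and at D5 1423, 1596 and 1450 times. Per library this gave 0.374, 0.714 and 0.894 CPM at D0 and 56.7, 64.8 and 58.3 CPM at D5, a 90.7-fold difference of the means. D0 replicate 1 was the lowest of its group, and all D5 libraries lay far above them. The log2 fold change was 6.48 (SE 0.10, edgeR adjusted p = 1.6e-30), between 6.20 without D0 replicate 1 and 6.74 without D0 replicate 3. In all, 97.6% of the genes tested had a lower log2 fold change. *Klb*, which encodes beta-Klotho, the co-receptor FGF21 needs for signalling, had at most 2 counts in any library, under the floor of 3 counts used here for detection. *Kl*, which encodes the related alpha-Klotho, had 0 counts at D0 and 12, 16 and 18 counts at D5, at least 8.19-fold higher against a floor of 3 counts per library.

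*Fgf2* (ENSMUSG00000037225.13, chromosome 3 from 37348346 to 37410108), the basic FGF used as a myoblast mitogen, had 2.06, 2.05 and 2.43 CPM at D0 and 20.5, 22.1 and 22.1 CPM at D5. The replicates of each group lay close together and the groups were 9.90-fold apart, with a log2 fold change of 3.30 (SE 0.089, edgeR adjusted p = 1.1e-24). Of the exonic length of *Fgf2*, 9.44% is shared with *Nudt6* on the opposite strand, and the strand setting of the counting is not stated, so reads of the pair may be mixed. *Nudt6* itself was at 3.18 ± 0.188 CPM (D0) and 4.65 ± 0.206 CPM (D5) (n = 3, SD), and how reads in the shared stretch were assigned was not tested.

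*Spry1* (ENSMUSG00000037211.12, chromosome 3 from 37639947 to 37644598) had 2.99, 2.90 and 2.76 CPM in the D0 libraries and 40.7, 42.7 and 39.5 CPM in the D5 libraries. The libraries of each group were nearly alike and the groups were 14.2-fold apart. The log2 fold change was 3.83 (SE 0.070, edgeR adjusted p = 4.1e-29). Of its exonic length, 24.4% is shared with *Gm42922* on the opposite strand, which had at most 21 counts in any library against at least 983 of *Spry1* at D5. As the strand setting is not stated, these counts do not show how reads in the shared stretch were assigned, which was not tested.

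*Spry2* (ENSMUSG00000022114.5, chromosome 14 from 105891947 to 105896819), the most abundant Sprouty gene in both groups, had 33.1, 32.5 and 33.8 CPM at D0 and 66.8, 63.1 and 68.3 CPM at D5. It was 1.99-fold higher at D5, with a log2 fold change of 1.00 (SE 0.043, edgeR adjusted p = 3.3e-19). With scaling to the spike-ins the log2 fold change was 0.41 and the call was lost (edgeR adjusted p = 0.565). *Spry4* (ENSMUSG00000024427.6, chromosome 18 from 38586247 to 38601415 by the annotation used here) had the smallest difference of the Sprouty genes, being counted 122, 106 and 146 times at D0 against 143, 131 and 139 times at D5, in libraries of lower depth. In CPM the groups did not overlap, with means of 3.13 ± 0.562 and 5.53 ± 0.195 (n = 3, SD) and a difference on the log2 scale of 0.82 (SE 0.13, edgeR adjusted p = 8.7e-07). The call of *Spry4* was lost with scaling to the spike-ins and in counts that were not scaled. *Spry3*, the remaining Sprouty gene, had at most 12 counts in any library and was not tested.

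The make-up of the Sprouty transcripts was compared in the same way. Of their summed TPM, *Spry1* took 5.86%, 5.83% and 5.29% in the D0 libraries and 29.6%, 31.9% and 28.6% in the D5 libraries. *Spry2* took 90.6% ± 0.430 at D0 and 67.5% ± 1.66 at D5, and *Spry4* took 3.75% ± 0.592 and 2.48% ± 0.0533 (n = 3, SD). In shares of counts the difference for *Spry4* was -3.07 percentage points, against -1.27 in shares of TPM. In shares of TPM the groups did not overlap for any of the 3 genes, and the exact two-sided permutation test gave p = 0.1 for each, again the smallest value possible. The summed level was 60.7 ± 1.92 TPM at D0 and 146 ± 4.76 TPM at D5 (n = 3, SD).

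Ordered by TPM, *Spry2* and *Fgfr1* led at D0, with 53.9 to 56.9 and 50.9 to 55.8 TPM, ranges that overlapped. *Fgfrl1* followed with 29.1 to 31.6 TPM, *Spry1* with 3.33 to 3.50 TPM and *Fgf21* with 1.34 to 3.30 TPM, which overlapped with *Spry4* at 1.84 to 2.67 TPM. *Fgf2*, *Fgfr3*, *Fgfr2* and *Fgfr4* came last, each clear of the next, down to 0.140 to 0.221 TPM for *Fgfr4*. At D5 *Fgf21* led with 189 to 208 TPM, ahead of *Spry2* with 92.2 to 102 TPM and *Fgfrl1* with 83.5 to 103 TPM, which overlapped. *Fgfr1*, *Spry1*, *Fgf2*, *Fgfr4*, *Fgfr3*, *Spry4* and *Fgfr2* followed in this order without overlap between neighbours, from 64.6 to 67.2 TPM for *Fgfr1* down to 1.55 to 2.08 TPM for *Fgfr2*. These orders rest on the division by exonic length. In CPM *Fgfr1* led in both groups, at D5 with 207 to 213 CPM against 56.7 to 64.8 CPM for *Fgf21*.

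**Figure D3:**
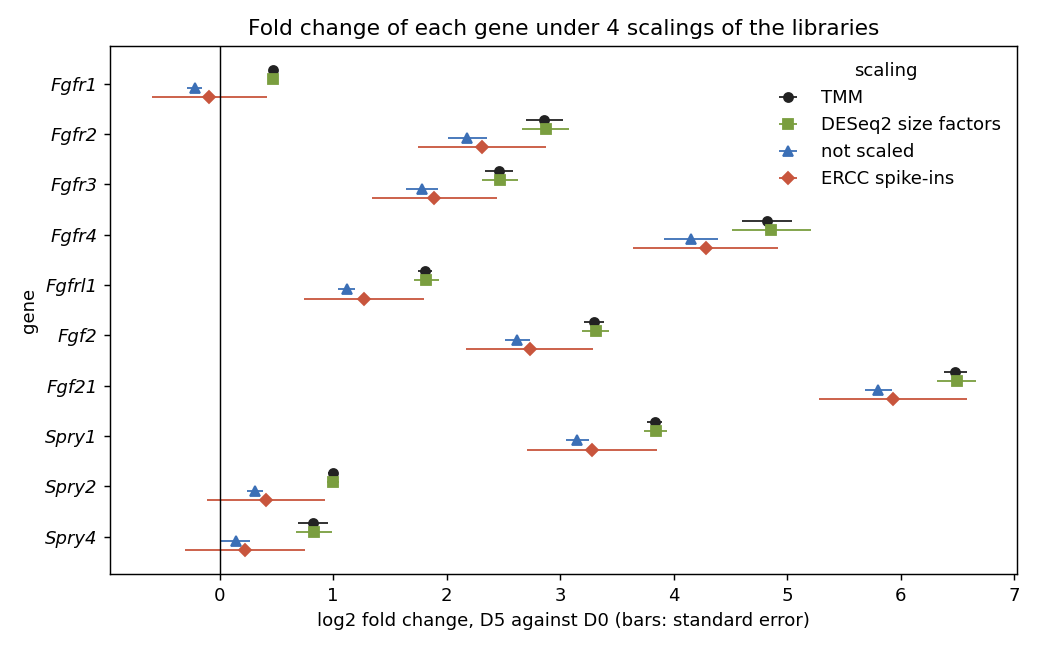
Log2 fold change of D5 against D0 for each gene with its standard error, under 4 scalings of the libraries: TMM, DESeq2 size factors, none, and ERCC spike-ins. TMM and DESeq2 nearly coincide, the other scalings lie lower for every gene, and *Fgfr1* goes below 0 with both, at -0.22 and -0.09.

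Of the 20 other genes named as FGFs, 5 had enough counts to be tested, and all 5 were higher at D5, beside 42.2% of all genes tested. In unscaled counts and with spike-in scaling 4 were called higher, beside 20.6% and 11.1% of all genes. *Fgf7*, *Fgf10* and *Fgf13* passed the filter on low counts only through their D5 libraries, so this count is no support for a direction of the list. *Fgf10*, a ligand known from mesenchyme that signals to epithelia, had 8, 3 and 6 counts at D0 and 660, 605 and 650 counts at D5, a log2 fold change of 7.46. *Fgf7*, of the same subfamily, had 4, 11 and 4 counts at D0 and 330, 318 and 346 counts at D5, a log2 fold change of 6.36. Both moved with the fibroblast markers given above, and the part of those in this result was not tested. *Fgf11* and *Fgf13* belong to the FGF homologous factors, which stay inside the cell and do not act as classical ligands. *Fgf11* rose from 9.76 ± 0.582 CPM to 37.6 ± 0.944 CPM (n = 3, SD), and *Fgf13* had 0 counts at D0 and 72, 75 and 75 counts at D5, at least 39.5-fold higher. *Fgf5* was at 2.54 ± 0.174 CPM and 3.83 ± 0.258 CPM (n = 3, SD), with a log2 fold change of 0.60 that was -0.08 in counts that were not scaled. Over the 5 genes the median was 6.36, or 5.30 with *Fgf13* at its bound. Of the 15 not tested, 10 had at most 3 counts in every library, among them *Fgf6*, an FGF known from skeletal muscle, with 0 counts throughout.

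Among 15 genes for co-receptors, heparan sulfate proteoglycans and FGF binding proteins, 11 were tested. The test called 8 of them higher and 2 lower, and they had a median log2 fold change of 0.44, beside 42.2% higher and 40.8% lower over all genes. Of the 8, *Kl*, *Gpc4* and *Fgfbp1* passed the filter on low counts only through D5, which fixed their direction. In unscaled counts 5 were higher and 5 lower, and with spike-in scaling 3 and 1. Of all 16290 genes tested, 3353 were higher and 10953 lower in unscaled counts, and 1813 and 3747 with spike-in scaling. *Fgfbp1*, a secreted carrier that frees FGFs from the matrix, was counted at most 2 times in a D0 library and 303, 341 and 270 times at D5, at least 163-fold higher. The syndecans diverged, *Sdc3* falling from 276 ± 6.5 CPM to 24.4 ± 1.71 CPM and *Sdc2* rising from 137 ± 3.01 CPM to 447 ± 5.01 CPM (n = 3, SD). The glypican *Gpc6* rose from 22.6 ± 0.797 CPM to 62.1 ± 2.38 CPM (n = 3, SD). The calls of *Sdc2* and *Gpc6* were lost with scaling to the spike-ins (edgeR adjusted p = 0.0716 and 0.177).

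Of 11 receptor adaptors and associated proteins in the cytoplasm, 2 were higher, 5 lower and 4 not called, with a median log2 fold change of -0.11, beside 42.2% higher and 40.8% lower among all genes tested. The split depended on the scaling, with 0 higher and 11 lower in unscaled counts and 0 and 2 with spike-in scaling. That of all 16290 genes tested did so too, with 3353 higher and 10953 lower in unscaled counts and 1813 and 3747 with spike-in scaling. *Frs2*, the docking protein of FGF receptors, had a log2 fold change of -0.69, and *Cbl*, a ubiquitin ligase that targets activated receptors, had -0.97. *Gab1*, a docking protein, was at -0.44, and *Shc1*, an adaptor, was at 0.51, a sign that turned in counts that were not scaled (-0.17) and with scaling to the spike-ins (-0.08). Of 11 genes of the Ras-ERK core, 6 were higher, 4 lower and 1 not called, with a median log2 fold change of 0.19. In unscaled counts 2 of these were higher and 8 lower, and with spike-in scaling 0 and 1. The highest with TMM was *Ksr1*, a scaffold of the cascade, at 1.00. The RAF kinase *Araf* was at 0.98 and the MEK gene *Map2k1* at 0.68.

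Of the 11 other feedback inhibitors 10 were tested, of which 6 were higher and 2 lower, with a median log2 fold change of 0.25, beside 42.2% higher and 40.8% lower among all genes. In unscaled counts 2 were higher and 7 lower, beside 3353 and 10953 of all 16290 genes tested. With spike-in scaling 1 was higher and 0 lower, beside 1813 and 3747 of all genes. *Il17rd* rose from 4.39 ± 0.140 CPM to 19.8 ± 0.912 CPM (n = 3, SD), on the log2 scale a difference of 2.18 (edgeR adjusted p = 1.4e-21), and was the inhibitor of this list that kept its call with scaling to the spike-ins. *Dusp7*, an ERK phosphatase, rose from 9.76 ± 0.213 CPM to 28.2 ± 2.28 CPM (n = 3, SD). *Dusp6* and *Spred1* had log2 fold changes of 0.60 and 0.53, whose signs turned in counts that were not scaled (-0.08 and -0.16) and with scaling to the spike-ins (-0.01 and -0.04). The largest differences of this list, those of *Il17rd* (2.18) and *Dusp7* (1.53), were smaller than that of *Spry1* (3.83). They were larger than those of *Spry2* (1.00) and *Spry4* (0.82), and these comparisons of values were not tested.

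Of 9 transcription factors and cell cycle genes known to respond to ERK, 5 were higher and 4 lower, shares near the 42.2% and 40.8% of all genes, and their median log2 fold change was 1.01. With spike-in scaling 1 was higher and 4 lower, beside 1813 and 3747 of all 16290 genes tested. The PEA3 factors, often used as readouts of FGF signalling, went in different directions. *Etv1* rose from 0.880 ± 0.135 CPM to 8.83 ± 0.304 CPM and *Etv5* from 5.50 ± 0.457 CPM to 18.9 ± 0.160 CPM, whereas *Etv4* fell from 16.1 ± 0.685 CPM to 5.60 ± 0.256 CPM (n = 3, SD). *Fosl1*, a subunit of AP-1, fell from 20.7 ± 0.310 CPM to 3.17 ± 0.373 CPM and *Myc* from 48.3 ± 0.773 CPM to 12 ± 0.733 CPM (n = 3, SD). The call of *Etv5* was lost with scaling to the spike-ins (edgeR adjusted p = 0.0586).

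**Figure D4:**
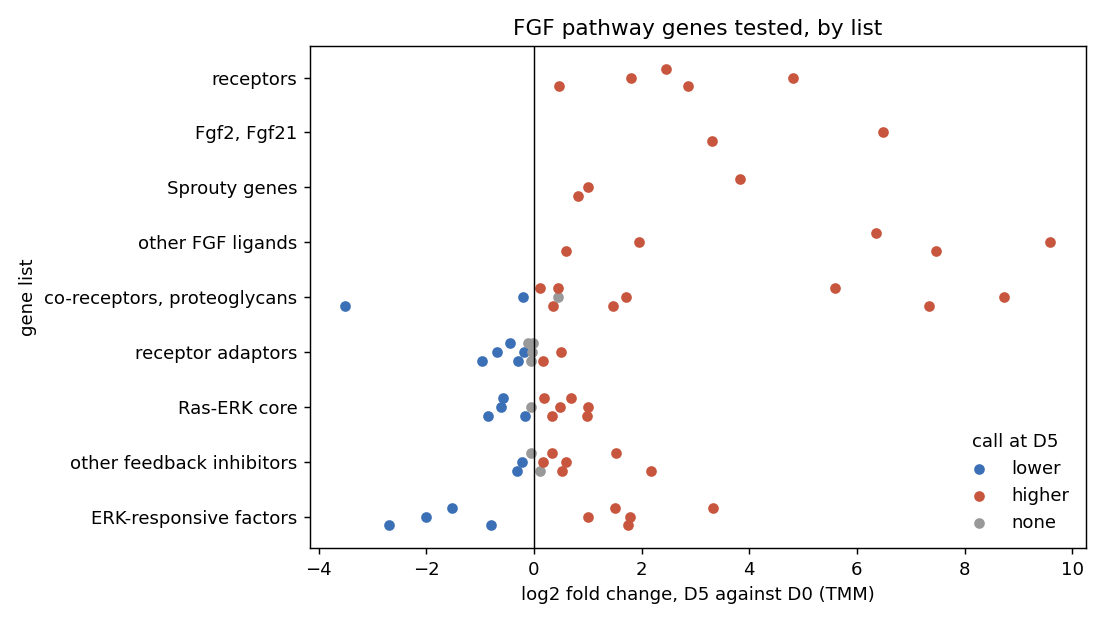
Log2 fold change of D5 against D0 (TMM) for each tested gene of 9 FGF pathway lists, coloured by its call in edgeR's test. The 10 genes of the upper 3 rows lie right of 0 (*Fgfr1* at 0.47, negative in unscaled counts and with spike-in scaling), whereas the adaptors and the Ras-ERK core spread from -0.97 to 1.00; fitted values for *Fgf13*, *Kl*, *Gpc4* and *Fgfbp1* are no bounds, since their D0 libraries were at or near 0.

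The genes with the most similar pattern were found by the Euclidean distance between log2 CPM profiles over the 6 libraries, each centred on its own mean, among 11886 tested genes averaging 100 or more counts in a group. Closest to *Fgfr1* were *Fbxw5*, *Renbp* and *Atp6v1a*, at distances of 0.037, 0.048 and 0.050. Closest to *Fgfr4* were *Tmem117*, *Cd34* and *Cnr1*, at 0.27, 0.36 and 0.37, with log2 fold changes of 4.8, 4.53 and 4.46. Closest to *Spry1* were *Pfkm*, *Pik3ip1* and *H2-T23*, at 0.089, 0.14 and 0.19, with log2 fold changes of 3.83, 3.74 and 3.77. With 2 groups of 3 libraries, such a distance reflects mainly the size of the difference between D0 and D5.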

How the data were processed

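Total RNA of 6 C2C12 libraries (3 at D0, 3 at D5) was sequenced, and the authors deposited whole-number read counts per gene from featureCounts on GRCm38, without normalization. The labels name Tophat2 as aligner and the paper's methods HISAT2, and which made these counts is not settled. Annotation release, strand setting and read length are not given in the sources used here. Rows of 92 ERCC spike-ins (0.720% to 2.09% of counts) and a row without a name, equal to the column total, entered neither library sizes nor tests.

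The 10 genes and all lists were chosen with earlier results of these data known. D5 was compared with D0 in edgeR 4.0.16 (R 4.3.3; TMM, filterByExpr, quasi-likelihood test) over 16290 genes, with Benjamini-Hochberg adjustment and a threshold of 0.05. Each SE was obtained as |log2 fold change| over the root of the F statistic. TPM used exonic lengths from GENCODE M21, which matched 99.8% of the genes. A gene with at most 3 counts in a library was taken as undetected there, which covers counting error only (0.0714 to 0.122 CPM). Shares were compared by exact permutation tests. Genes named from other lists were the 4 with the largest absolute log2 fold change among called genes averaging 100 or more counts in a group, the 3 nearest profiles of *Fgfr1*, *Fgfr4* and *Spry1*, and genes whose exons overlap the 10. *Fgf6*, *Fgf13*, *Kl*, *Klb*, *Gpc4*, *Spry3* and *Etv4* were added after their values were seen. For 1 gene that the rule gives, the result is not reported here. Alternatives were DESeq2 1.42.0, upper-quartile, total-count, no and spike-in scaling, other filters, omission of each library, a block for the replicate number, and shares without length. On simulated counts of 15933 genes, edgeR recovered 80.7% of genes changed 2-fold and 3.73% of its calls were false. In that simulation few genes changed, as many up as down, with the same dispersion for every gene. In the data most genes tested were called, so these rates may not carry over. Replicates were no copies: chi-square over degrees of freedom lay between 2.16 and 3.45 for each pair.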

Additional observations from a re-analysis of the deposited data

How the results depend on the processing

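Leaving out each library in turn kept all 10 genes higher at D5 past the threshold. So did DESeq2, upper-quartile factors, total counts and no filter on low counts. With at least 10 counts in every library 9 were tested and all 9 were higher, *Fgfr4* falling under the filter. In counts that were not scaled 8 were higher and 1 lower, *Fgfr1* being at -0.22 past the threshold and *Spry4* at 0.14 without a call. With scaling to the spike-ins, whose share of counts ran from 0.720% to 2.09% at D5, 7 were higher, with *Fgfr1* at -0.09, *Spry2* at 0.41 and *Spry4* at 0.22 without a call. In total 134 of 139 values of single genes kept direction and call. The cause of the others was not tested. Counts that were not scaled keep the greater depth of the D0 libraries.

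Over all genes, counts that were not scaled gave 3353 higher and 10953 lower calls (23.4% higher against 50.8% with TMM), and spike-in scaling gave 1813 higher and 3747 lower calls (32.6% higher). In counts that were not scaled, higher and lower genes numbered 5 and 5 among co-receptors and proteoglycans, 0 and 11 among adaptors, 2 and 8 in the Ras-ERK core and 2 and 7 among the other feedback inhibitors. With spike-in scaling they numbered 3 and 1, 0 and 2, 0 and 1, and 1 and 0 in these lists, and 1 ERK-responsive factor was higher. With total counts 1 adaptor was higher and 8 were lower. With at least 10 counts in every library 2 other FGF genes were higher, since fewer were tested.

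Shares of counts without division by length changed by -7.13 percentage points for *Fgfr1*, 2.89 for *Fgfr3*, 2.18 for *Fgfr4*, 29.0 for *Spry1*, -26.0 for *Spry2* and -3.07 for *Spry4*. The directions were those of the shares of TPM, but over 1.5 times smaller for *Fgfr1* and *Fgfr4* and over 1.5 times larger for *Spry4*.

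The replicate numbers in the titles are not described as a pairing. Deviations of same-numbered libraries correlated by 0.0329, 0.0645 and 0.0277, and each library correlated best with its own number, a hint from the data and not from the design. With the replicate number as a block, 13558 genes passed the threshold against 13510 without it, and all 10 genes were higher. Few counts limit the D0 levels of *Fgfr4*, *Fgf21* and *Fgfr2*.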
